A study of Mus musculus with 45 samples.

Results

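Bisphenol S (BPS) is a sulfonyl analogue of bisphenol A that has replaced it in some plastics and in thermal receipt paper. The data described here are the 24 h, 50 µM arm of a series on cultured embryonic mouse forelimbs: 5 RNA-seq libraries from limbs kept with 50 µM BPS and 5 from limbs kept with the vehicle dimethyl sulfoxide (DMSO), 10 of the 45 libraries in all. Members were chosen by the labelled dose and time alone, and every gene was examined. Forelimb buds came from CD1 embryos on gestation day 13, were pooled in glass bottles gassed with 5% CO2 and 50% O2, and mixed male and female limbs. The remaining groups, also of 5 libraries, held 10 µM BPS at 24 h and both doses and DMSO at 3 h and 48 h. Bottles were assigned to a dose, but the labels do not say that the 5 libraries of a group came from separate litters or culture days, so each p-value rests on the spread among the libraries, some of which may be technical.

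A limb bud of this stage holds condensing mesenchyme that turns into cartilage and later, through enlarged hypertrophic chondrocytes, is replaced by bone. Cells make cholesterol through the mevalonate pathway. When sterols run low in the endoplasmic reticulum, the factor SREBP-2 is released, travels to the nucleus and switches on genes of sterol synthesis and uptake. Its relative SREBP-1c drives fatty acid synthesis. Cholesterol is also needed in the developing limb because it modifies hedgehog proteins and acts on their signalling machinery.

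The 50 µM libraries held 17.3 to 21.8 M counted reads and the DMSO libraries 15.7 to 18.8 M. Skeletal genes were abundant: Col2a1, the main cartilage collagen, read 6202 ± 415 CPM (counts per 1e6 reads) with 50 µM BPS and 6329 ± 209.9 CPM with DMSO (SD, n = 5 each). Markers of muscle, epidermis, endothelium, macrophages, red cells and nerve were also present, so the RNA came from skeletal and other cells of the limb. In such bulk RNA, fewer cells of a type and less RNA per cell cannot be told apart. Libraries that stood apart were 50 µM library 5, with a score of 38.8 on the first principal component (23.2% of the variance, other 9 libraries -8.92 to 4.60), DMSO library 5, which at 4.60 lay apart from the other DMSO libraries on that component and in the length difference described further on, and DMSO libraries 1 and 2, described with the hypoxia genes.

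At 24 h, 62 of 16512 genes tested differed between 50 µM BPS and DMSO at an adjusted p below 0.05 (edgeR's quasi-likelihood test with Benjamini-Hochberg adjustment), which is 0.375% of the genes; 12.4% had an unadjusted p below 0.05. Of these, 41 rose (0.248%) and 21 fell (0.127%). The changes were small: the median of the rises was 0.34 on the log2 scale (1.26-fold) and that of the falls -0.41 (0.755-fold), and only 6 genes, 2 higher and 4 lower, passed 1.5-fold. Those 6 were Scd1 and Dbx1, and Mettl17, Stfa3, C1ra and Atp6v0c. The groups did not overlap for 38 of the 41 rises and for 21 of the 21 falls, a separation that choosing genes by p in the same 10 libraries largely fixes; over all genes 1.73% were apart with BPS higher and 1.14% with BPS lower.

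The number called was unsteady. DESeq2 called 289, limma-voom 23, and edgeR with the replicate number as a block 949, a setting described further on. Leaving out one 50 µM library at a time gave 105 genes without library 1, 18 without library 2, 3 without library 3, 2 without library 4 and 55 without library 5. Leaving out one DMSO library gave 15, 7, 21, 13 and 315 genes without libraries 1 to 5 in that order, and leaving out DMSO libraries 1 and 2 together gave 2. All 62 genes kept their direction and an unadjusted p below 0.05 in each of the 10 runs with one library left out. Choosing them by p in the same libraries largely fixes that outcome. Mettl17 and Cpm were called in all 10.

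**Figure D1:**
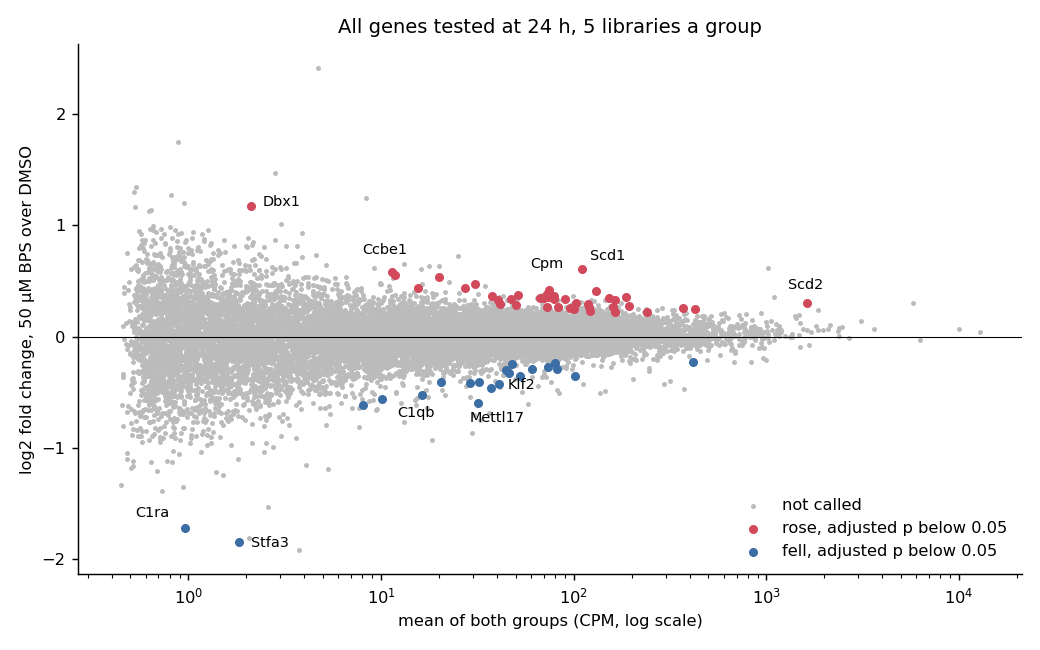
Each point is 1 of the 16512 genes tested, with its mean over both groups in CPM (log axis) and its log2 fold change, 50 µM BPS over DMSO, at 24 h. The 41 genes that rose are red and the 21 that fell are blue; most called genes lie within 0.7 of 0 on the log2 scale.

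Genes of cholesterol synthesis, sterol uptake and fatty acid synthesis made up 9 of the 41 that rose. Of 22 cholesterol synthesis genes tested, 4 rose, among them Hmgcs1, Lss and Dhcr7, 0 fell and 18 did not pass. Their median log2 change was 0.21, against 0.003 over all genes, and 21 of the 22 lay above 0, as did 50.8% of all genes. Of 19 genes of SREBP control and sterol handling, 2 rose, among them Insig1 (median 0.13). Of 17 fatty acid synthesis genes 3 rose (Scd1, Scd2 and Fasn, median 0.17). Over all genes tested 0.248% rose, and the lists were chosen with earlier results of these data known.

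Hmgcs1 makes HMG-CoA, the precursor of mevalonate. It read 196, 196, 207, 208 and 239.8 CPM in the 50 µM libraries, against 138, 155, 174, 171 and 176 CPM in the DMSO libraries. Every 50 µM library lay above every DMSO library, and the log2 change was 0.36 ± 0.071 (SE; edgeR adjusted p = 0.0405).

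Lss closes squalene epoxide into lanosterol, the first sterol of the pathway. It read 73.4, 71.97, 77.03, 81.01 and 70.9 CPM in the 50 µM libraries, against 57.1, 58.7, 55.3, 64.6 and 57.6 CPM in the DMSO libraries. Dhcr7, which reduces 7-dehydrocholesterol in the last step to cholesterol, read 81.7, 72.8, 86.1, 82.4 and 90.5 CPM in the 50 µM libraries, against 57.5, 60.4, 65.9, 66.2 and 67.3 CPM in the DMSO libraries. Neither gene's groups overlapped, and the log2 changes were 0.35 ± 0.057 for Lss (adjusted p = 0.0154) and 0.38 ± 0.063 for Dhcr7 (adjusted p = 0.0174). Acat2, Mvd and Hsd17b7, enzymes of early and late steps, had changes of 0.32, 0.26 and 0.39 that did not pass (adjusted p = 0.0565, 0.077 and 0.0789).

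Insig1 encodes a sterol-sensing anchor that holds the SREBP carrier in the endoplasmic reticulum and is itself switched on by SREBP. It read 74.9, 72.4, 83.9, 78.7 and 81.6 CPM in the 50 µM libraries, against 55.7, 56.8, 61.2, 73.1 and 60.8 CPM in the DMSO libraries. The highest DMSO library, library 4, lay above the lowest 50 µM library, so the groups overlapped, at a log2 change of 0.35 ± 0.069 (adjusted p = 0.0405). Srebf2, which encodes SREBP-2, did not pass (0.13 ± 0.049, adjusted p = 0.263).

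Scd1 and Scd2 encode stearoyl-CoA desaturases, which put the double bond into newly made fatty acids. Scd1 (mm10 chr19:44394451-44407709, minus strand) read 127, 113, 144, 142 and 139 CPM in the 50 µM libraries, against 80.1, 70.6, 90.1, 96.1 and 98.04 CPM in the DMSO libraries. It had the largest change of the 9 called lipid synthesis and uptake genes, 0.61 ± 0.087 on the log2 scale or 52.8% (adjusted p = 0.0142). Scd2 read 1731, 1649.7, 1841, 1834 and 1882 CPM in the 50 µM libraries, against 1468, 1256, 1478, 1521 and 1520.1 CPM in the DMSO libraries, a log2 change of 0.30 ± 0.059 (adjusted p = 0.0356). Both genes had groups that did not overlap, and per length Scd2 was far the more abundant: 325 ± 17.6 FPKM with 50 µM BPS and 264 ± 20.4 FPKM with DMSO, where Scd1 held 27.3 ± 2.60 FPKM with 50 µM BPS and 17.9 ± 2.40 FPKM with DMSO (SD, n = 5 each).

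Fasn, the fatty acid synthase, read 382, 373, 446, 412 and 387 CPM in the 50 µM libraries, against 348, 319.6, 340.5, 354 and 314 CPM in the DMSO libraries. The groups did not overlap, and the log2 change was 0.25 ± 0.054 (adjusted p = 0.0498). Acaca, which makes the malonyl-CoA that Fasn uses, stood at 0.25 ± 0.059 and did not pass (adjusted p = 0.0645). One gene of lipid storage went the other way. Plin2, which coats lipid droplets, read 58.4, 55.8, 55.2, 48.2 and 55.7 CPM in the 50 µM libraries, against 72.1, 68.4, 64.6, 63.05 and 66.9 CPM in the DMSO libraries, without overlap (log2 change -0.30 ± 0.059, adjusted p = 0.0405). It was the 1 gene that fell among 19 genes of lipid droplets and fatty acid use, of which 0 rose (median -0.11, 3 of 19 above 0). Cd36, a fatty acid transporter, and Angptl4, an inhibitor of lipoprotein lipase, had changes of -0.36 and -0.61 that did not pass (adjusted p = 0.11 and 0.212).

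**Figure D2:**
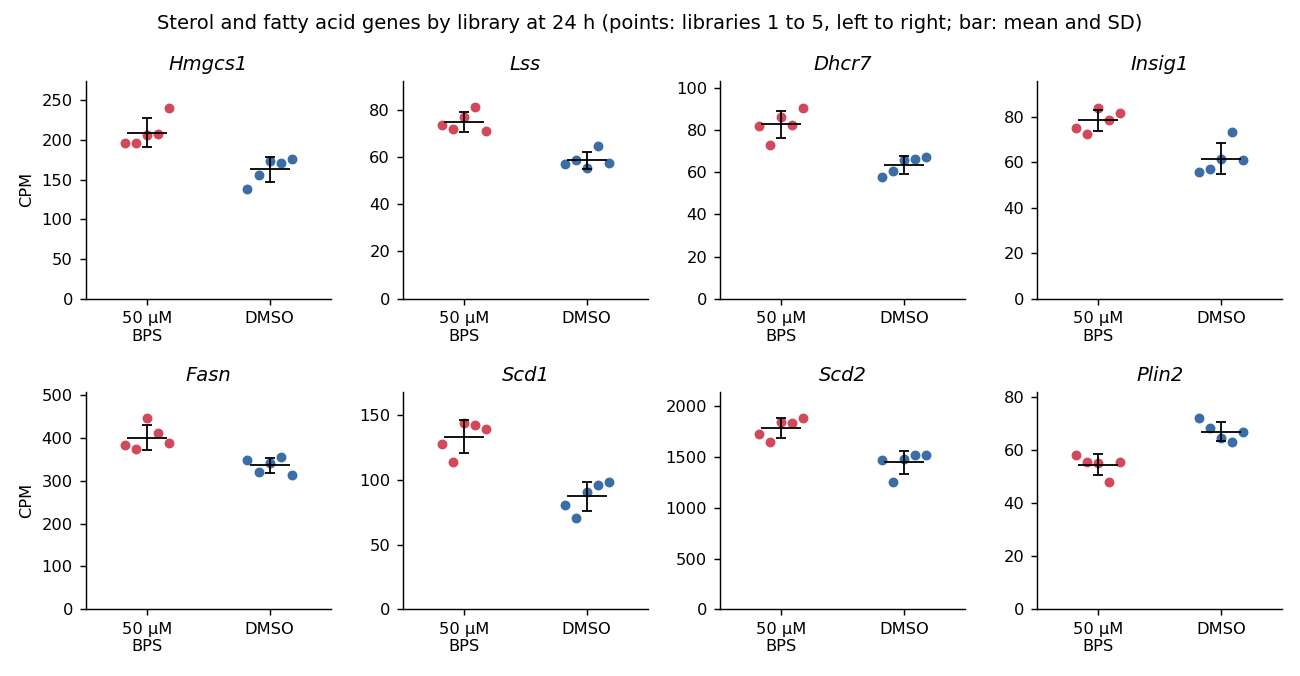
CPM of 8 called lipid genes in each library at 24 h, 50 µM BPS (red) left of DMSO (blue), with points in library order and the bar at the mean with SD. The 7 genes of sterol and fatty acid synthesis and control lie higher with BPS, only Insig1 with an overlap, and Plin2 lies lower.

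Summed over the list, cholesterol synthesis genes stood at 1589.5, 1535, 1703, 1668 and 1734 CPM in the 50 µM libraries and 1249, 1316, 1411, 1448 and 1422 CPM in the DMSO libraries. The groups did not overlap. Sums of the SREBP list were barely apart (1834.2 to 1972.8 against 1693.8 to 1832.4 CPM). Those of fatty acid synthesis (3285 to 3685.5 against 2696 to 3099 CPM) and, lower with BPS, of lipid droplets (713 to 773 against 800 to 859 CPM) were also apart. Scd2 alone averaged 1788 of the 3532 CPM of fatty acid synthesis with 50 µM BPS and 1449 of 2963 CPM with DMSO. Sums of lists with 0 genes called by edgeR were apart too: aryl hydrocarbon receptor and xenobiotic genes (367 to 379 against 338 to 362 CPM), and BMP and TGF-beta genes (2539 to 2673 against 2380 to 2501 CPM). Without DMSO libraries 1 and 2 the median of the cholesterol synthesis list was 0.15, and the changes of Hmgcs1 and Scd1 were 0.26 and 0.48. Only Scd1 of the 9 called lipid genes was still called (edgeR adjusted p = 0.0496).

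The promoter of Hmgcs1 is shown because it is the one among these lipid genes that holds the classical sterol response element, TCACNCCAC, searched on both strands from 250 bases before to 50 after the start site (RefSeq windows, GRCm38.p6). Windows were matched for 5 of the 9 called lipid genes, and 1 of the 5 held the element; over the 27025 genes of the promoter table the share was 1.44%. The stretch lies at chr13:119690184-119690252 on the plus strand, with the element in capitals.
Hmgcs1 promoter: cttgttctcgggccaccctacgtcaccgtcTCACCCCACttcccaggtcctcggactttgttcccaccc
Among all 27 genes that rose and had a window, Hmgcs1 was the 1 match, and among 18 that fell the 1 match was Rsrp1, a gene of a serine and arginine rich protein. The E-box CACGTG, a site that SREBPs can also bind, stood in 2 of the 5 lipid windows and in 4 of 27 windows of genes that rose. It stood in 4 of 18 windows of genes that fell and in 3 of 17 of the cholesterol synthesis list. The share was 11.3% of the genes tested that had a window and 8.09% of the whole promoter table. Motifs of ER stress, CRE, amino acid, hypoxia, xenobiotic and antioxidant response were searched as well. The xenobiotic element GCGTG stood in 4 of the 5 lipid windows and in 21 of 27 windows of genes that rose. It stood in 9 of 18 windows of genes that fell and in 54.6% of the genes tested that had a window. The hypoxia core ACGTG stood in 7 of 27, 5 of 18 and 28.4%, in that order. A match is a run of letters and not a measured site.

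The gene with the smallest adjusted p lay outside lipid metabolism and fell. Mettl17 (mm10 chr14:51884842-51893039, plus strand), an assembly factor of the mitochondrial ribosome, read 26.5, 24.7, 24.3, 24.8 and 26.5 CPM in the 50 µM libraries, against 40.1, 37.96, 37.8, 37.3 and 39.3 CPM in the DMSO libraries. The highest 50 µM library lay well under the lowest DMSO library, and the log2 change was -0.60 ± 0.062, a drop to 0.659 of the DMSO level (adjusted p = 0.00017). The mitochondrial genome's own transcripts did not pass: 0 of 14 were called by edgeR or DESeq2, though 14 of 14 lay above 0 and 2 had an unadjusted p below 0.05 (median 0.22, and 0.10 to 0.32 with 1 library left out).

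Among the genes that rose outside lipid metabolism, Cpm, Adamts9 and Lepr had the smallest p. The gene Cpm, which encodes the membrane-bound carboxypeptidase M and not the unit, read 83.8, 85.9, 84.7, 85.95 and 87.7 CPM in the 50 µM libraries, against 62.2, 61.1, 64.4, 62.3 and 69.5 CPM in the DMSO libraries, with no overlap (log2 change 0.42 ± 0.052, adjusted p = 0.00119). Adamts9, a secreted protease that cleaves versican and aggrecan, read 81.6, 88.5, 89.99, 94.9 and 90.5 CPM in the 50 µM libraries, against 67.5, 69.7, 68.4, 68.9 and 70.5 CPM in the DMSO libraries. It too was apart, by 0.37 ± 0.052 (adjusted p = 0.00605). Lepr, the leptin receptor, read 30.4, 30.9, 32.95, 30.7 and 32.9 CPM in the 50 µM libraries, against 22.6, 22.5, 25.1, 21.5 and 24.7 CPM in the DMSO libraries (log2 change 0.44 ± 0.070, adjusted p = 0.0154).

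Thsd4, a microfibril protein gene, rose by 0.35 on the log2 scale, Heg1, a receptor of vessel and heart development, by 0.36, and Eya2, a transcriptional coactivator with phosphatase activity, by 0.37. Ccbe1, a secreted factor of lymphatic growth, rose by 0.58 and Cldn11, a tight junction claudin, by 0.53. Aldh1l2, a mitochondrial enzyme of folate metabolism, rose by 0.48. Timp3, the inhibitor of matrix metalloproteinases, rose by 0.23 and was, with Adamts9, 1 of 2 genes called among 21 matrix proteases and inhibitors (0 fell, median 0.07). Notch2 rose by 0.22, the 1 gene called of 15 in the Notch list (median -0.05). In these 8 genes the groups did not overlap.

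Dbx1, a homeobox gene, had the largest rise but few reads: 2.89, 2.18, 2.59, 4.08 and 2.92 CPM in the 50 µM libraries, against 1.42, 1.20, 1.16, 1.78 and 0.924 CPM in the DMSO libraries (log2 change 1.18 ± 0.237, adjusted p = 0.0405). At this level 3 reads correspond to 0.138 to 0.191 CPM across the 10 libraries. The largest falls were at similarly low levels, and their lowest 50 µM libraries lay near those 3 reads. Stfa3, a stefin of a mouse family of near-identical copies whose reads cannot be assigned with certainty, fell by 1.85 on the log2 scale, and C1ra, a complement protease gene with a close copy, C1rb, fell by 1.72. Stfa3 read 0.170 to 1.26 CPM in the 50 µM libraries and 2.11 to 3.51 CPM in the DMSO libraries, and C1ra 0.175 to 0.738 and 0.796 to 2.09 CPM. DESeq2 gave C1ra no adjusted p. At 48 h C1ra stood at -0.34 ± 0.265 (edgeR adjusted p = 0.644) and at 3 h at 0.07 ± 0.284.

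Of the 62 called genes, 12 overlap another gene of at least 1 CPM in the genome, among them Aldh1l2 with D10Wsu102e and Stab1 with Nt5dc2. The sources used here do not say that strand was used in counting, so reads of such pairs are uncertain. Nt5dc2 averaged 209.8 CPM over the 24 h libraries, far above Stab1.

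Among the other genes that fell, Osr2, a zinc finger factor of limb joints, read 47.1, 39.8, 48.3, 47.1 and 48.1 CPM in the 50 µM libraries, against 62.0, 59.9, 56.8, 56.9 and 58.1 CPM in the DMSO libraries (log2 change -0.35 ± 0.060, adjusted p = 0.0177). The groups did not overlap, and Osr2 was the 1 gene called among 24 tendon and joint genes (median -0.0027). Klf2, a transcription factor that responds to flow in vessels, read 34.2, 39.8, 34.6, 36.3 and 28.9 CPM in the 50 µM libraries, against 54.7, 44.5, 45.9, 47.8 and 40.3 CPM in the DMSO libraries. It fell by 0.42 on the log2 scale (adjusted p = 0.0405), again without overlap, as the 1 gene called of 23 immediate early genes (median -0.06). Apeh, a serine peptidase, Adcy4, an adenylyl cyclase, Zscan26, a zinc finger gene, and Klf11, a TGF-beta-inducible repressor, fell by 0.33, 0.30, 0.30 and 0.41.

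Macrophage transcripts tended to lie lower with BPS. C1qb, a subunit of complement C1q made by macrophages, read 12.1, 14.6, 15.1, 12.7 and 12.2 CPM in the 50 µM libraries, against 23.5, 20.6, 18.98, 17.6 and 15.3 CPM in the DMSO libraries and fell by 0.52 on the log2 scale (adjusted p = 0.0475). Stab1, a scavenger receptor of macrophages and of some endothelium, read 35.3, 34.1, 29.7, 30.4 and 27.7 CPM in the 50 µM libraries, against 51.3, 47.3, 42.9, 38.01 and 36.98 CPM in the DMSO libraries and fell by 0.46 (adjusted p = 0.0405). Both were apart between groups. C1qb was the 1 gene called of 19 macrophage and leukocyte genes tested, 17 of which lay below 0 (median -0.26, and -0.16 without DMSO libraries 1 and 2). In the same list 7 genes had an unadjusted p below 0.05 and DESeq2 called 5; by edgeR 5 were called without DMSO library 5 and 0 without any other single library. Csf1r, the receptor for the macrophage growth factor, and Cx3cr1, the fractalkine receptor, had changes of -0.46 and -0.66 that did not pass (adjusted p = 0.0602 and 0.0681). The sum of the list was 379, 412, 354, 347 and 329.8 CPM in the 50 µM libraries and 513, 477, 425, 444 and 337 CPM in the DMSO libraries, so the groups overlapped, and 0 of the 24 genes in it were at 0 in all 10 libraries. Of 21 endothelial genes 0 were called by edgeR and 1 by DESeq2, with 5 at an unadjusted p below 0.05 (median -0.12, and 0.02 without DMSO libraries 1 and 2). Whether a smaller share of these cells plays a part in the falls of C1qb, Stab1 and Klf2 was not tested.

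Genes of hypoxia and glycolysis had the lowest median of the 37 lists, -0.39, with 0 of 38 called by edgeR, 3 by DESeq2 and 6 at an unadjusted p below 0.05. Their sum was 4222, 5089.9, 4142, 3938 and 4300.0 CPM in the 50 µM libraries and 7432, 6072, 3993, 4226 and 4851 CPM in the DMSO libraries. DMSO libraries 1 and 2 stood above the other 8 libraries, which overlapped. Without those DMSO libraries the median was -0.02, a step towards 0 that picking them for their high values in this list largely fixes. Txnip and Arrdc4, arrestin-like genes that respond to sugar supply, had groups that did not overlap but did not pass, at -0.49 ± 0.103 (adjusted p = 0.0644) and -0.40 ± 0.091 (adjusted p = 0.06). Naming list genes by smallest p in the same libraries largely fixes such a separation, and 1.14% of all genes were apart with BPS lower.

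**Figure D3:**
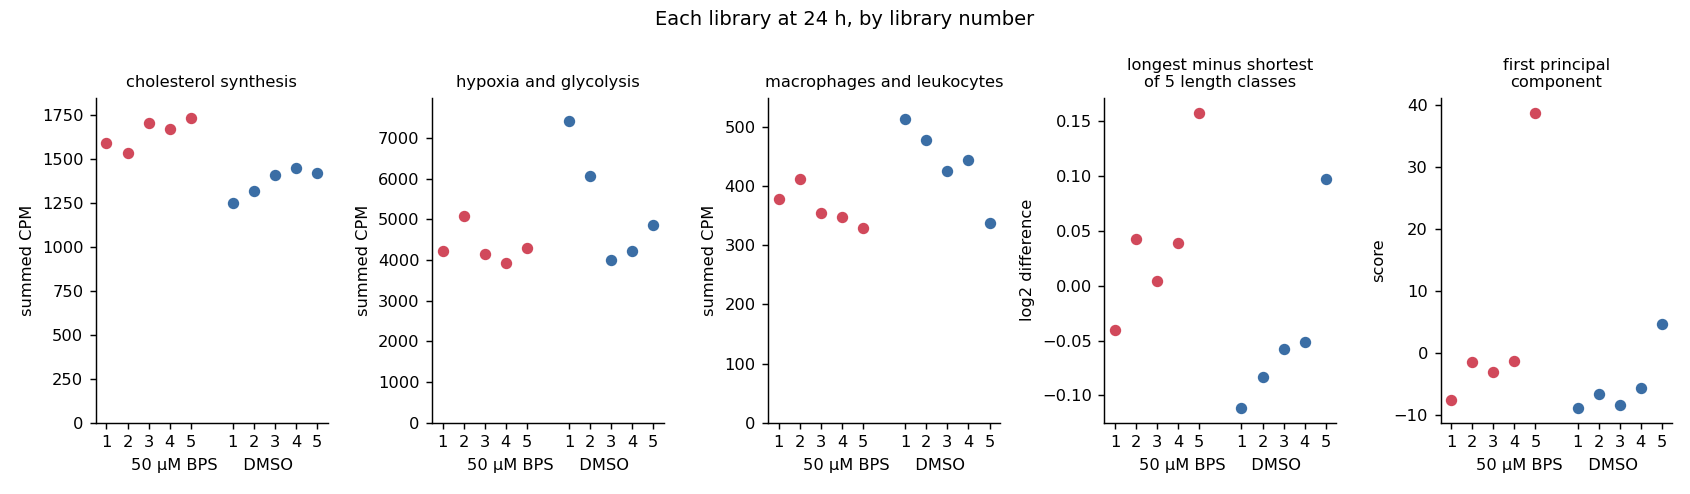
Values of each library at 24 h, 50 µM BPS (red) left of DMSO (blue): summed CPM of 3 gene lists, the log2 difference between the longest and the shortest of 5 classes of genes, and the first principal component. Cholesterol synthesis sums are apart, DMSO libraries 1 and 2 are high in hypoxia genes, and 50 µM library 5 is far out on the component at 38.8.

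The main skeletal lists held no gene called by edgeR. None of 29 cartilage matrix and early chondrocyte genes, 20 hypertrophic chondrocyte genes, 21 osteoblast and mineral matrix genes or 15 hedgehog pathway genes passed in edgeR, with medians of 0.02, -0.01, 0.0038 and 0.02. DESeq2 called 2 cartilage genes, 1 hypertrophic gene and 0 on the other two lists. By unadjusted p below 0.05 in edgeR, 4 cartilage genes lay higher and 4 lower, 2 hypertrophic genes higher, 2 osteoblast genes higher and 1 lower, and 4 hedgehog genes higher, where 7.09% of all genes lay higher and 5.32% lower. Sox9, the master factor of cartilage, had a log2 value of 0.10 ± 0.048, Acan, the main cartilage proteoglycan, of 0.02 ± 0.063 and Runx2, the factor of bone formation, of 0.12 ± 0.053. Ihh, the hedgehog ligand of growing cartilage, stood at 0.19 ± 0.127 and its receptor and target Ptch1 at 0.13 ± 0.059. Alpl, the mineralizing phosphatase, stood at -0.06 ± 0.095.

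Late differentiation genes varied widely between libraries of a group. Col10a1, the collagen of hypertrophic cartilage, read 37.7, 15.1, 10.4, 12.5 and 11.2 CPM in the 50 µM libraries, against 16.6, 15.6, 41.7, 31.1 and 16.3 CPM in the DMSO libraries (log2 change -0.48 ± 0.466). The range within each group spans the other group's mean. Ibsp, a bone matrix sialoprotein, stood at -0.20 ± 0.382.

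The stress and steroid receptor lists also had no call by edgeR, and DESeq2 called 1 ATF4 target and 1 of 16 NRF2 antioxidant targets, a list with 3 genes at an unadjusted p below 0.05. For 21 genes of endoplasmic reticulum chaperones and the unfolded protein response the median was 0.08, 18 of 21 lay above 0 and 3 had an unadjusted p below 0.05; Hspa5, the main chaperone, stood at 0.08 ± 0.051. The 24 ATF4 amino acid stress targets had a median of 0.06 and 5 genes at an unadjusted p below 0.05, with Mthfd2, a mitochondrial folate enzyme, nearest to a call at 0.29 ± 0.063 (adjusted p = 0.0537). Aldh1l2 and Pycr1, enzymes of folate metabolism and proline synthesis that were called, rose by 0.48 and 0.34. Neither stands on this list, so its count does not cover them. Of 16 steroid receptors and estrogen targets 0 were called (median 0.11, 5 with an unadjusted p below 0.05), and Esr1, the estrogen receptor alpha gene, was low, at 0.895 ± 0.258 CPM with 50 µM BPS and 0.742 ± 0.281 CPM with DMSO. Cyp1a1, which the aryl hydrocarbon receptor switches on, had a log2 value of -0.11 ± 0.181.

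Across the 37 lists, 761 distinct genes were tested and 16 called (2.10%), 12 higher and 4 lower, in 9 lists. Of all genes tested 0.375% were called, 0.248% higher and 0.127% lower. The lists were chosen with earlier results of these data known, a choice that can raise their share. In the other 28 lists 0 were called, with medians between -0.39 and 0.22. The remaining 46 called genes stood on no list.

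**Figure D4:**
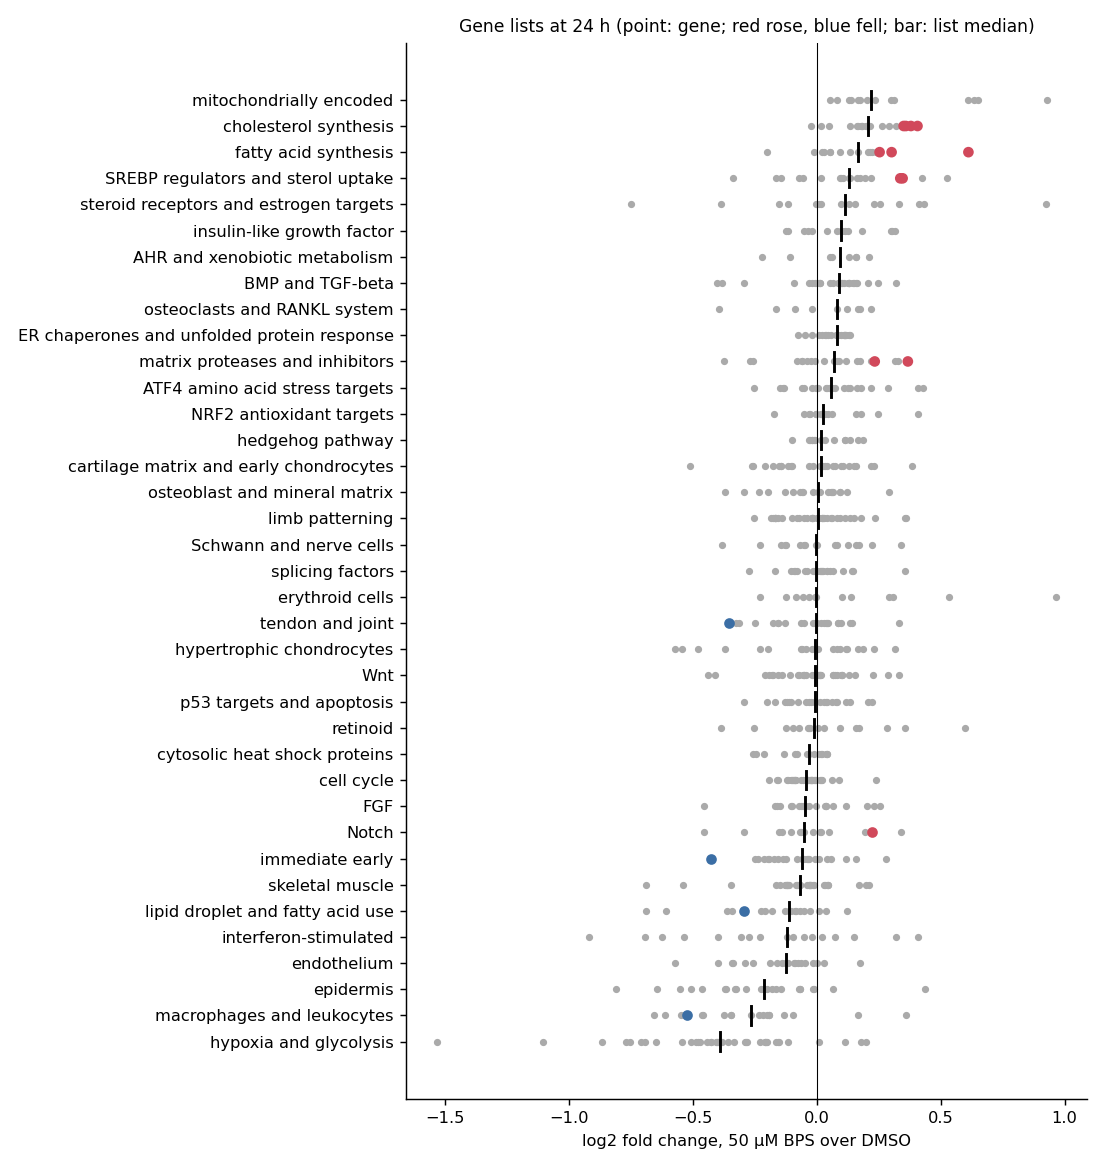
Log2 fold change at 24 h, 50 µM BPS over DMSO, of every tested gene in each of 37 lists, sorted by list median (bar). Red genes rose and blue genes fell; the 9 called lipid synthesis and uptake genes lie in 3 of the 4 lists with the highest medians, and the hypoxia list lies lowest at -0.39.

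Longer genes tended to lie higher and shorter genes lower. The genes that rose spanned a median of 46691 bases in the genome and those that fell 10924, against 20586 over all genes tested. In 5 equal classes of span, from shortest to longest, the median log2 changes were -0.03, -0.03, -0.01, 0.02 and 0.06. The longest class held 16 of the 41 rises and the shortest 2. Library by library, the difference between the longest and the shortest class was -0.04, 0.04, 0.004, 0.04 and 0.16 on the log2 scale with 50 µM BPS, and -0.11, -0.08, -0.06, -0.05 and 0.10 with DMSO. The annotated gene length, a different measure from span, had a median of 7503 for rises, 3623 for falls and 4044 over all genes tested. An alternative chosen after the data were seen took out the trend on this gene length, not on span. It called 49 genes, among them 24 of the 41 rises and 17 of the 21 falls. Scd1, Mettl17, Cpm and Adamts9 stayed called, and Fasn and Thsd4 did not (adjusted p = 0.195 and 0.112).

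The 10 µM dose was set against the same DMSO libraries. By edgeR 0 of 16529 genes were called (0.0%), with 494 at an unadjusted p below 0.05 (2.99%); DESeq2 and limma-voom also called 0. Between 50 µM and 10 µM edgeR called 0 of 16587 (0.0%), with 923 at an unadjusted p below 0.05 (5.56%); DESeq2 called 41 and limma-voom 0. Side by side, Scd1 averaged 87.0 ± 11.5 CPM with DMSO, 91.7 ± 12.3 CPM with 10 µM BPS and 133 ± 12.8 CPM with 50 µM BPS (SD, n = 5 each). The mean of Scd1 at 10 µM lay inside the range of the DMSO libraries. Mettl17 averaged 38.5 ± 1.18 CPM with DMSO, 32.9 ± 2.24 CPM with 10 µM BPS and 25.4 ± 1.06 CPM with 50 µM BPS, which put 10 µM between the others (log2 change at 10 µM -0.24 ± 0.065, not called).

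The libraries of 48 h and 3 h share no sample with those of 24 h, so they carry the same measure in other libraries. The labels do not say whether litters or culture days were shared between times, so the times are not known to be independent. At 48 h, all 41 genes that rose at 24 h lay higher with 50 µM BPS, against 48.8% of all genes, and 16 of them rose (0.48% of all genes did). All 21 that fell lay lower and 9 of them fell (0.522% of all genes did). Scd1 rose by 0.92 ± 0.081 at 48 h (adjusted p = 3.58e-05), the gene Cpm by 0.63 ± 0.056 (adjusted p = 3.58e-05) and Lss by 0.68 ± 0.093 (adjusted p = 0.00234). Gdf10, a growth factor of the BMP family, rose by 0.33 at 24 h and by 0.65 ± 0.065 at 48 h (adjusted p = 0.000154). Of the 22 cholesterol synthesis genes 15 rose at 48 h (median 0.42). Mettl17 changed by -0.59 ± 0.068 (adjusted p = 0.000672) and Stab1 by -0.61 ± 0.072 (adjusted p = 0.000704). The smallest changes at 48 h among the 62 genes were those of Nbea (0.03 ± 0.095), a protein of vesicle traffic, and Syne2 (0.01 ± 0.090), a nuclear envelope protein.

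At 3 h, 29 of the 41 rises lay higher, against 51.5% of all genes, and 0 rose (0.0299% of all genes did), with 13 at an unadjusted p below 0.05 in that direction (4.16% of all genes). DESeq2 called 5 of the 62 genes in their 24 h direction. Of the 20 falls tested 16 lay lower and 2 fell (0.0239% of all genes did), Mettl17 with a log2 change of -0.54 ± 0.090 (adjusted p = 0.025) and Zscan26 with -0.43 ± 0.056 (adjusted p = 0.00221). Mettl17 was thus lower with 50 µM BPS at all 3 times. A test of the difference between times by edgeR called 0 of 17496 genes for 24 h minus 3 h (0.0%; 1284 or 7.34% at an unadjusted p below 0.05, and 0 by limma-voom) and 0 of 17481 for 24 h minus 48 h (0.0%; 519 or 2.97%, and 0).

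**Figure D5:**
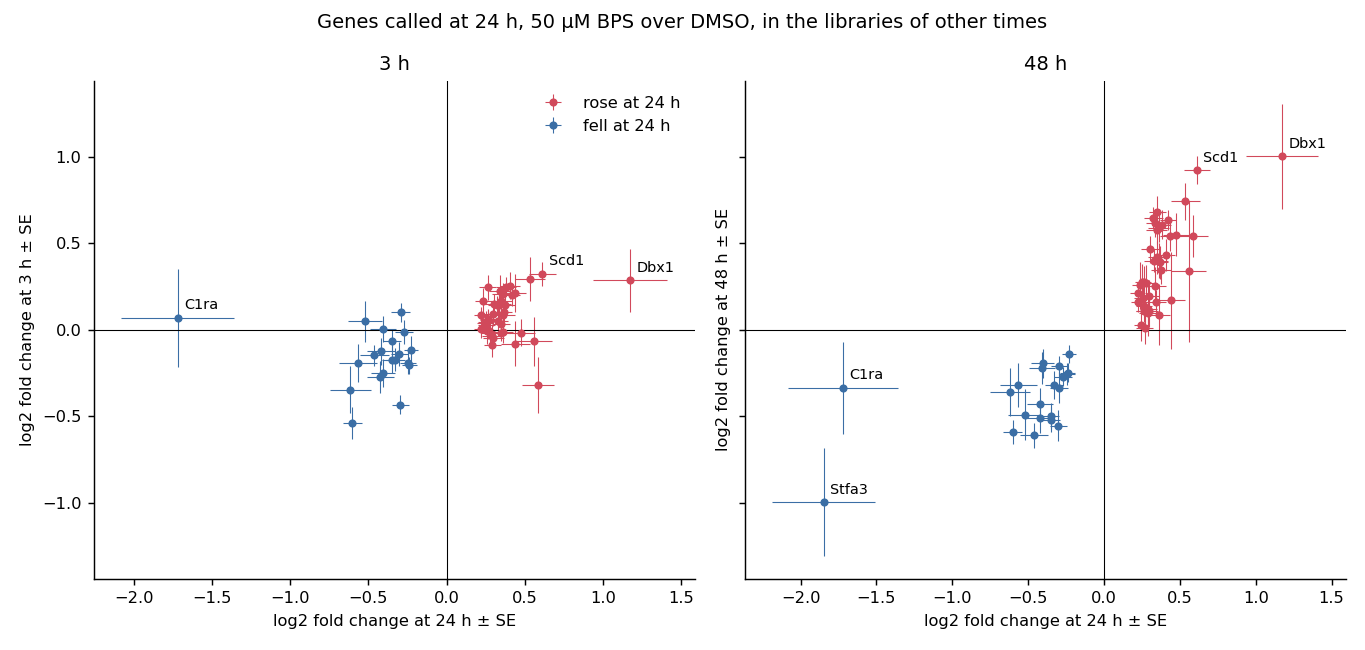
Log2 fold changes ± SE, 50 µM BPS over DMSO, of the 62 genes called at 24 h (horizontal) against those in the separate libraries of 3 h (left panel) and 48 h (right panel). At 48 h all 41 rises (red) lie above 0 and all 21 falls (blue) below 0, while at 3 h 29 rises and 16 falls do; Stfa3 was not tested at 3 h.

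The authors' deposited table for the same comparison listed 268 genes at an adjusted p below 0.05, 160 higher and 108 lower, and 61 genes stood in both sets, which is 98.4% of the 62 and 22.8% of the 268.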

How the data were processed

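Raw counts per gene were deposited by the authors, together with FPKM values and, in the authors' deposited tables, log2 fold changes with p-values. Tools listed, with no role or order, per the submitters' processing notes are HTSeq 0.6.1, DESeq2 2, CASAVA 1.8 and STAR 2.5, and the build is mm10. Poly-A RNA was sequenced, per the labels' protocols, and whether counting used strand is not given in the sources used here. Control counts repeated between the deposited tables, 435225 values, were identical. In the replicate check, no pair of libraries differed by as little as sampling noise (smallest chi-square per degree of freedom 4.33).

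Counts of both groups were tested by edgeR 4.0.16 (R 4.3.3): genes kept by filterByExpr, TMM factors, robust quasi-likelihood test, no covariate, Benjamini-Hochberg adjustment over all genes tested, called at an adjusted p below 0.05; SE is the log2 change divided by the root of F. CPM uses TMM factors over all 45 libraries. FPKM as deposited was used only for levels between genes. The fit was tested on simulated data. DESeq2 1.42.0, limma-voom (limma 3.58.1), other scalings and filters, single libraries left out and the replicate number as a block were alternatives. Members and gene lists were chosen with earlier results of these data known. Genes named were, per direction, the 12 called genes of smallest p and the 8 of largest change with a mean of at least 1 CPM, up to 3 genes of each list, and a panel of skeletal, sterol and stress genes; a few genes that this rule names are not reported here. Gdf10, Nbea, Syne2, Rsrp1, C1ra, Acat2, Mvd, Hsd17b7, Acaca, Nt5dc2 and D10Wsu102e were chosen after their values were seen.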

Additional observations from a re-analysis of the deposited data

Results flagged for a closer look

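In 16 of 196 sets of 5 libraries checked, 1 library stood far from the other 4, with a gap to its nearest neighbour above 0.71 of the group's whole range; chance gives about 1 such set in 20.

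On the first principal component of the 24 h libraries, 50 µM library 5 scored 38.8 against -7.56 to -1.39 for the other 50 µM libraries, and DMSO library 5 scored 4.60 against -8.92 to -5.65 for the other DMSO libraries. DMSO library 5 was also highest in the log2 difference between the longest and the shortest of 5 length classes of genes, at 0.098, where the other DMSO libraries lay between -0.11 and -0.05.

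In 50 µM library 5, Hmgcs1 read 239.8 CPM (other 50 µM libraries 195.8 to 207.8), Notch2 265.3 (254.8 to 256.6), Cd36 22.6 (16.2 to 17.9) and Esr1 1.34 (0.699 to 0.849), each the highest of its group. In 50 µM library 1, Col10a1 read 37.7 CPM (others 10.4 to 15.1). In 50 µM library 4, Heg1 read 92.1 CPM (others 81.1 to 82.5), Rsrp1 400.6 (376.7 to 383.6) and Dpysl5, a gene of a collapsin response mediator, 15.4 (17.99 to 18.6). Osr2 read 39.8 CPM in 50 µM library 2 (others 47.1 to 48.3).

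Among the DMSO libraries, Scd2 read 1255.7 CPM in library 2 (others 1467.6 to 1521.1). Crip2, a LIM domain gene, read 38.4 CPM in library 1 (others 31.1 to 32.8) and Syne2 83.4 (71.6 to 73.5). In library 5 Aldh1l2 read 28.98 CPM (others 24.3 to 25.5).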

How the results depend on the processing

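With 62 genes called at 24 h (41 higher, 21 lower), other settings gave 289 by DESeq2 (174 and 115), 23 by limma-voom (16 and 7), 221 with no filter on low counts (136 and 85), 104 in a fit of all 45 libraries (48 and 56) and 81 in a fit of the 3 groups at 24 h (45 and 36). Alternatives added after seeing the data gave 364 without both libraries numbered 5, and 2 without DMSO libraries 1 and 2 (1 and 1). Single libraries left out gave 2 to 315 (1 to 209 higher, 1 to 106 lower). Genes past 1.5-fold, 6 in number, were 32 by DESeq2, 25 with no filter, 21 with 45 libraries, 11 with 3 groups, 35 without both libraries numbered 5, 1 without DMSO libraries 1 and 2, and 1 to 41 with 1 library left out. List genes called, 16 in number, were 48 by DESeq2, 8 by limma-voom, 42 with no filter, 29 with 45 libraries, 52 without both libraries numbered 5, 1 without DMSO libraries 1 and 2, and 0 to 43 with 1 library left out. The cause was not tested. Other scaling factors (71 and 57 genes), a filter at 1 CPM (53) and the length trend removed (49) stayed within 1.5 times. Between 50 and 10 µM, 0 genes were 41 by DESeq2, 41 with no filter and 0 to 12 with 1 library left out; 24 h minus 3 h gave 2 with no filter. At 10 µM every alternative run gave 0.

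With the replicate number as a block, 949 genes were called at 24 h (621 higher, 328 lower; 57 past 1.5-fold; 115 on lists), 181 between 50 and 10 µM, and 266 for 24 h minus 3 h, and 11 of the 62 were called at 3 h in their 24 h direction, where 2 were without the block and 5 by DESeq2. Same-numbered libraries correlated in their deviations from the group means at 0.14, 0.079, 0.23, 0.096 and 0.25. Pairs of different numbers lay between -0.16 and 0.10. Every DMSO library correlated best with its own number, as did every 50 µM library but library 2. The labels do not say whether a number marks a shared litter or day, so the numbers were not taken as pairs in the main test. Whether they mark something shared was not settled. All 62 genes stayed called with the block. The block called 15 of 22 cholesterol synthesis, 7 of 19 SREBP and sterol handling and 8 of 17 fatty acid synthesis genes. It called 3 of 19 lipid droplet, 6 of 19 macrophage, 5 of 38 hypoxia and 5 of 21 matrix protease genes. Without the block edgeR called 4, 2, 3, 1, 1, 0 and 2, in that order.

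All 62 called genes kept their direction in every run that tested them, which choosing them in the same libraries largely fixes. Uncalled genes near 0 changed sign: Acan (-0.015 with the length trend removed, -0.022 to 0.078 with 1 library left out), Col2a1 (-0.062 to 0.0040) and Alpl (-0.12 to 0.017) with 1 library left out, and Esr1 (-0.10 without both libraries numbered 5). With 5 libraries a group, the number called ran from 2 to 315 when 1 library was left out. A gene that did not pass is not shown to be without change.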

Other observations

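The BMP and TGF-beta, cell cycle, Wnt and limb patterning lists had 0 genes called by edgeR. Of 30 BMP and TGF-beta genes 23 lay above 0 (median 0.09), of 33 cell cycle genes 6 (median -0.04), of 37 Wnt genes 17 (median -0.01) and of 38 limb patterning genes 20 (median 0.0036); 8, 2, 3 and 9 of them had an unadjusted p below 0.05, in that order, and DESeq2 called 1, 0, 1 and 1. The FGF, insulin-like growth factor and retinoid lists, of 21, 15 and 16 genes, also had 0 called by edgeR, with 3, 3 and 4 at an unadjusted p below 0.05 and 2, 2 and 1 called by DESeq2. Off the lists, and chosen after their values were seen, growth factor signalling genes that rose included Gdf10, described with the 48 h libraries, Bmper, Skil and Egfr. Bmper, which binds BMPs outside the cell, stood at 44.9 ± 2.74 CPM with 50 µM BPS and 35.7 ± 2.17 CPM with DMSO (SD, n = 5 each, edgeR adjusted p = 0.0356). Skil, a repressor of TGF-beta signalling, rose by 0.34 on the log2 scale and Egfr, the epidermal growth factor receptor, by 0.27 (edgeR adjusted p = 0.0405 and 0.0437). Pycr1, the last enzyme of proline synthesis, rose by 0.34 and Oat, which turns ornithine into a proline precursor, by 0.22 (adjusted p = 0.0499 and 0.0499); Oat overlaps Fgfr2 in the genome, so its reads are uncertain.

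Of the other cell types in the limb, 23 epidermal genes had a median of -0.21, and -0.07 without DMSO libraries 1 and 2, with 0 called. The medians were -0.07 for 33 muscle genes, -0.0021 for 13 erythroid genes and -0.0014 for 17 Schwann and nerve genes, and 0.02, 0.15 and 0.03 without those libraries, with 0 called in each list. By edgeR's unadjusted p below 0.05, 2 of the epidermal, 1 of the muscle, 3 of the erythroid and 1 of the nerve genes passed.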
